A study of Mus musculus with 12 samples.

Results

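CD71+ cells from the bone marrow of CD70TG*Ifng-/- mice were set against those of WT mice to see which transcripts still differed from WT when mice carrying a CD70 transgene could not make interferon-gamma. The arrays were chosen by the genotype in their labels: 3 of the 12 arrays in the series were from CD70TG*Ifng-/- mice and 3 from WT mice. CD70TG*Ifng-/- mice carried the CD70 transgene and lacked a working Ifng gene, CD70TG mice carried the transgene with Ifng intact, Ifng-/- mice lacked Ifng and had no transgene, and WT mice had neither change, with 3 arrays in each of these groups. Mice were male C57BL/6J animals aged 10 to 12 weeks, kept free of specific pathogens, and each array held RNA of 1 mouse. CD71 is the transferrin receptor, abundant on red cell precursors, and CD71+ cells were enriched on magnetic beads, so each sample was a mixture of cells. The labels name the transgenic line for the CD70TG mice only, as 1 clone, and do not say what drives the transgene. CD70TG*Ifng-/- and WT mice differ in both the transgene and Ifng, which this contrast cannot separate, so CD70TG and Ifng-/- values are given beside them.

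CD70 is a surface ligand that binds the receptor CD27 on lymphocytes, and lasting CD70 drives T cells to become effector cells that secrete interferon-gamma. Interferon-gamma acts through its receptor on transcription factors such as Irf1, and through them on genes for antigen presentation and defence. Red cell precursors mature in the marrow around a central macrophage, in erythroblastic islands held together by adhesion molecules such as Vcam1. That macrophage engulfs expelled nuclei, breaks down haem and returns iron.

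The deposited values are log2 values that had been centred on each probe set's own median over the 12 arrays, so a value of 1 lies 2-fold above that median, and levels of different genes cannot be compared. The only information on level was a class read from the rounding of the numbers, which placed 2859 of 19935 genes at an original log2 value of at least 8. In that class lay 26 of 29 red cell membrane and surface genes, Tfrc (the gene of CD71) among them, 20 of 27 erythroid transcription factors and 14 of 19 globin and haem synthesis genes. It also held 4 of 38 macrophage genes, 5 of 25 mature neutrophil genes, 1 of 36 B lineage genes and none of 24 T cell genes, so the label of red cell precursors is borne out by erythroid markers, with transcripts of other marrow cells in the mixture. Within a group the median difference between a pair of arrays ran from 0.0847 to 0.141. In a principal component view CD70TG*Ifng-/- 2 lay at the end of the second component, and CD70TG 3 and Ifng-/- 2 stood apart from their groups. The number of arrays limits the precision of every value below.

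The probe set for Ifng did not check the genotype labels. Ifng values were -0.11, 0.20 and 0.02 in CD70TG*Ifng-/- arrays, -0.11, 0.05 and 0.01 in CD70TG arrays, -0.16, -0.01 and -0.03 in Ifng-/- arrays and 0.03, -0.09 and 0.17 in WT arrays. All groups overlapped, and the change in CD70TG*Ifng-/- against WT was 0.00 ± 0.09 (SE; limma adjusted p = 0.992). Whether the probes lie in the altered part of the gene is not given in the sources used here. Cd70 values were 0.05, 0.34 and 0.26 in CD70TG*Ifng-/- arrays, 0.01, 0.05 and -0.01 in CD70TG arrays, -0.09, -0.49 and 0.04 in Ifng-/- arrays and -0.24, -0.38 and -0.12 in WT arrays. The CD70TG*Ifng-/- arrays lay above the WT arrays without overlap, and so did the CD70TG arrays. The difference of 0.46 ± 0.12 between CD70TG*Ifng-/- and WT missed the threshold (limma adjusted p = 0.0756).

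Most of what passed the test was lower in CD70TG*Ifng-/- mice. Of 19935 genes, 357 (1.79%) passed at an adjusted p under 0.05 with limma and the Benjamini-Hochberg correction. Of these, 89 genes (0.446% of those tested) were higher and 268 (1.34%) were lower in CD70TG*Ifng-/- arrays than in WT arrays. A change of at least 2-fold was found in 2 of the higher and 96 of the lower genes. Without any correction 3213 genes had p under 0.05, where 997 would be expected by chance. The lower calls held up better than the higher ones: 138 lower genes but 6 higher genes passed in each of the 12 fits that leave out 1 array, and 255 lower but 29 higher genes passed under all 3 other scalings of the arrays. The number called higher ranged from 7 without WT 1 to 198 without Ifng-/- 2, and the number called lower from 152 without WT 2 to 488 without Ifng-/- 1. The 2859 genes of the higher level class had a median change of 0.16, against 0.00 in the remaining 17076 genes, so a small positive change of an abundant transcript was close to the median of its class.

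**Figure D1:**
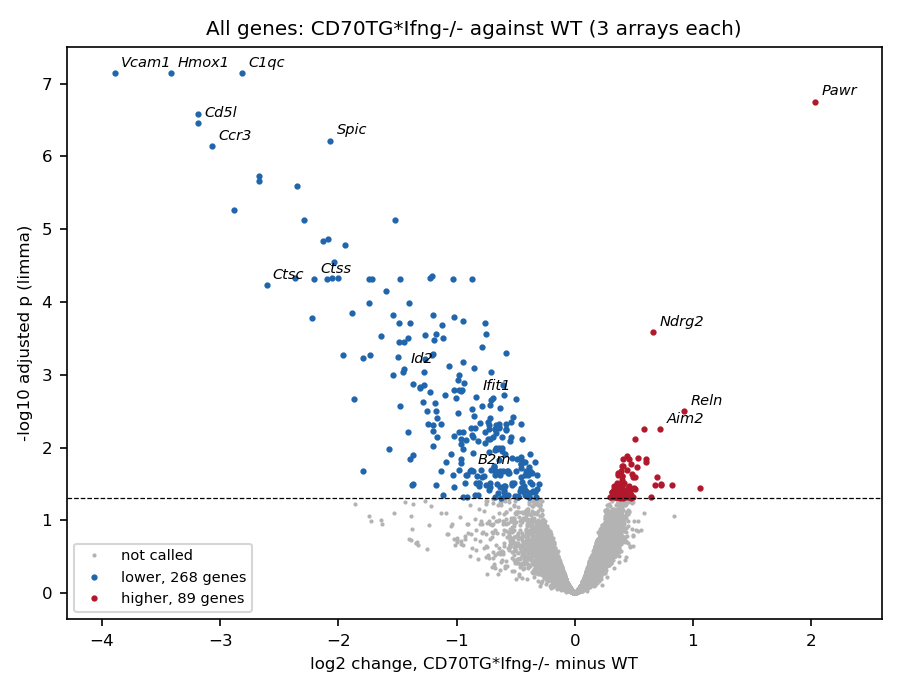
Each point is 1 of 19935 genes, with the log2 change in CD70TG*Ifng-/- against WT (3 arrays each) on the x axis and -log10 of the limma adjusted p on the y axis; the dashed line marks an adjusted p of 0.05. The 268 lower genes reach a log2 change of -3.89 at Vcam1, and of the 89 higher genes 2 reach a change of 2-fold, Pawr and the small nucleolar RNA Snord14e.

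Genes of island and resident macrophages fell furthest. Of 38 measured genes on this list, 32 were lower, none was higher and 6 did not pass, against 1.34% of all genes called lower. Their median change was -1.23, beside 0.02 over all genes. The mean of the list ran from -0.885 to -0.842 over the CD70TG*Ifng-/- arrays, from -0.694 to -0.483 over the CD70TG arrays, from 0.798 to 1.155 over the Ifng-/- arrays and from 0.489 to 1.03 over the WT arrays. Neither group with the transgene overlapped either group without it. In such mixtures fewer cells of a type and less RNA per cell cannot be told apart, which holds for each cell type below.

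Vcam1, the adhesion molecule by which island macrophages hold erythroblasts, had the largest change of all genes named here. Vcam1 was at -2.68, -2.57 and -2.58 in CD70TG*Ifng-/- arrays, -1.70, -1.75 and -1.05 in CD70TG arrays, 1.67, 1.37 and 1.77 in Ifng-/- arrays and 1.05, 1.69 and 1.11 in WT arrays. The CD70TG*Ifng-/- arrays were below those of the other 3 groups, including CD70TG, with no overlap. Against WT, Vcam1 was 14.8-fold lower in CD70TG*Ifng-/- arrays (log2 change -3.89 ± 0.18, limma adjusted p = 7.14e-08) and lower also than in CD70TG arrays (-1.11 ± 0.18, limma adjusted p = 0.00502).

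Hmox1, which opens the haem ring and frees its iron, was at -1.83, -1.75 and -1.50 in CD70TG*Ifng-/- arrays, -1.42, -1.49 and -1.39 in CD70TG arrays, 2.01, 1.86 and 2.11 in Ifng-/- arrays and 1.51, 2.28 and 1.39 in WT arrays. The 2 transgenic groups lay together, far below the 2 groups without the transgene. The change against WT was -3.42 ± 0.17 (10.7-fold lower, limma adjusted p = 7.14e-08), while the difference from CD70TG was -0.26 ± 0.17 (limma adjusted p = 0.618). Cd163, the receptor that takes up haemoglobin bound to haptoglobin, was at -1.22, -1.57 and -1.06 in CD70TG*Ifng-/- arrays, -1.02, -1.16 and -1.30 in CD70TG arrays, 1.93, 1.84 and 1.94 in Ifng-/- arrays and 1.48, 2.29 and 1.02 in WT arrays. It had the same pattern as Hmox1, with the transgenic groups overlapping each other (-2.88 ± 0.23 against WT, limma adjusted p = 5.53e-06).

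The mannose receptor gene Mrc1 was 9.10-fold lower in CD70TG*Ifng-/- arrays, against WT (log2 change -3.19 ± 0.19, limma adjusted p = 2.61e-07). Cd5l, a secreted protein of tissue macrophages, changed by as much (-3.19 ± 0.19, limma adjusted p = 3.45e-07). Trf, which encodes the iron carrier transferrin, changed by -2.67 and Hpgd, which inactivates prostaglandins, by -2.37. The lysosomal glycoprotein gene Cd68 (-2.35), the phagocytic receptor genes Axl (-2.09), Mertk (-1.50) and Timd4 (-0.58), the F4/80 gene Adgre1 (-2.06) and the sialoadhesin gene Siglec1 (-1.03) were lower as well. Csf1r, the receptor for the growth factor on which macrophages depend, was lower too (-1.20 ± 0.13, limma adjusted p = 0.000153). The 6 list genes that did not pass were Nr1h3 (-0.39), Maf (-0.24), Ctsb (-0.11), Marco (-0.08), Itgax (-0.05) and Clec4f (0.19), the last a marker of liver macrophages.

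**Figure D2:**
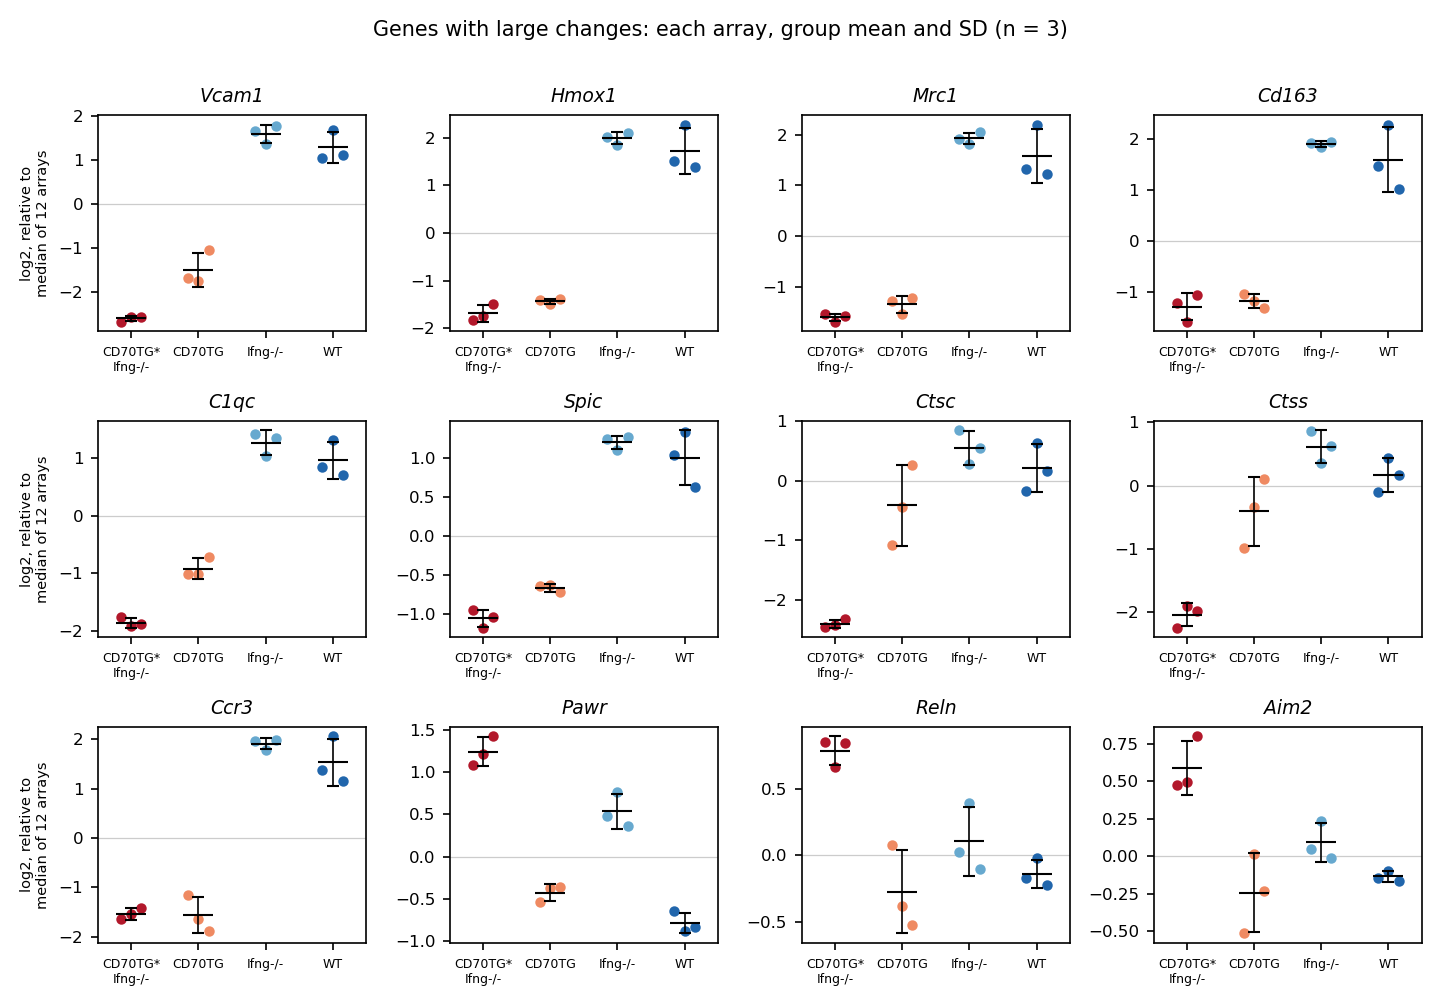
Points are the 3 arrays of each group on the deposited log2 scale, relative to the gene's median over 12 arrays, with bars for the group mean and SD. The 8 macrophage and monocyte genes and Ccr3 are low in CD70TG*Ifng-/- arrays. Of these, Ctsc, Ctss, Vcam1 and C1qc also passed the limma threshold as lower than in CD70TG. Pawr, Reln and Aim2 are highest in CD70TG*Ifng-/- arrays.

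Some complement and Fc receptor genes, whose products mark and bind what macrophages engulf, were lower than in CD70TG as well as in WT. C1qc, a chain of the first complement component, was at -1.76, -1.92 and -1.89 in CD70TG*Ifng-/- arrays, -1.02, -1.02 and -0.71 in CD70TG arrays, 1.42, 1.03 and 1.35 in Ifng-/- arrays and 0.85, 1.32 and 0.71 in WT arrays. The groups with the transgene did not overlap each other, CD70TG*Ifng-/- being the lower. The changes against WT were -2.82 ± 0.14 for C1qc, -2.67 ± 0.19 for C1qb and -2.29 ± 0.18 for C1qa, with limma adjusted p values of 7.14e-08, 1.85e-06 and 7.55e-06. Fcgr4, an activating Fc receptor, was at -1.28, -1.25 and -1.30 in CD70TG*Ifng-/- arrays, 0.37, 0.45 and 0.53 in CD70TG arrays, 0.52, -0.38 and -0.06 in Ifng-/- arrays and -0.23, 0.06 and 0.14 in WT arrays. Fcgr4 was thus low in CD70TG*Ifng-/- arrays alone among the 4 groups (-1.27 ± 0.16 against WT, limma adjusted p = 0.000601, and -1.73 against CD70TG, limma adjusted p = 5.58e-05). Against CD70TG, 282 of all genes (1.41%) were called, with 0.988% of genes tested lower. Of the 38 macrophage genes 4 were called lower there, Vcam1, C1qc, C1qb and Fcgr4, and none was higher. C1qa (-0.63, limma adjusted p = 0.144) and the Fc receptor genes Fcgr1 (-0.46, limma adjusted p = 0.137) and Fcgr3 (-0.61, limma adjusted p = 0.101) did not pass against CD70TG.

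The promoters of C1qc, Ctsc and Ctss are shown because these leading genes hold a motif bound by PU.1, the transcription factor of macrophages and monocytes. The windows run from 250 bases before to 50 bases after the start of the gene on its own strand (RefSeq, build GRCm38.p6), and the array files name no build. The motif searched was GAGGAAGT on both strands, so that capitals mark it or its reverse complement. In Ctss the first stretch in capitals is the interferon-stimulated response element (GAAA, any 2 bases, then GAAA), and the second is the PU.1-type motif.
C1qc, chr4:136892865-136893164, minus strand: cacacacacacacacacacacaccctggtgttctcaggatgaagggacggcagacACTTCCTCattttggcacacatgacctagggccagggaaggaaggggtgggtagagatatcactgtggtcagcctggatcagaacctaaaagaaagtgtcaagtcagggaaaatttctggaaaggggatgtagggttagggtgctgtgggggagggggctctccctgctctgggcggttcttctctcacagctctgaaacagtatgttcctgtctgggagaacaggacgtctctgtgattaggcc
Ctsc, chr7:88277835-88278134, plus strand: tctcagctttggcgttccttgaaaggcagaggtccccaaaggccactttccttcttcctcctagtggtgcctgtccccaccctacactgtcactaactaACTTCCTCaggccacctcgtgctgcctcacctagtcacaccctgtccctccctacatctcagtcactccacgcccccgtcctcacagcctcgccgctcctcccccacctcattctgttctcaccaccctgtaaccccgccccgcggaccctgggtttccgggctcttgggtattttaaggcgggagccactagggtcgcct
Ctss, chr3:95526536-95526835, plus strand: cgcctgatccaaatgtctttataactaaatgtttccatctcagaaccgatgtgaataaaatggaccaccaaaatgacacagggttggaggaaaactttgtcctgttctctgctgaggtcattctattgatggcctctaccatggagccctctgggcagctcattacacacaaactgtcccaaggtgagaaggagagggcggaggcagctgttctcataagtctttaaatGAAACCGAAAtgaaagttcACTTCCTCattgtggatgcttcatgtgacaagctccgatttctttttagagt
The PU.1-type motif began at position -195 from the start of C1qc, at -151 in Ctsc and at -2 in Ctss, and the response element at -21 in Ctss. The PU.1-type motif was in the window of 20 of the 208 lower genes that have one (9.62%), of 2 of 78 higher genes (2.56%) and of 427 of all 15612 genes with a window (2.74%). A match describes letters only and is not shown to be a bound site. Of the 47 named genes called lower, 37 had a window, and 6 held either motif.

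Among monocyte genes a smaller number passed, led by lysosomal proteases. Of 27 measured genes, 9 were lower, beside 1.34% of all genes, and none was higher, with a median change of -0.71. The list mean ran from -0.650 to -0.511 over the CD70TG*Ifng-/- arrays, from -0.345 to 0.229 over the CD70TG arrays, from -0.027 to 0.895 over the Ifng-/- arrays and from 0.118 to 0.395 over the WT arrays. The count is sensitive to the arrays in the fit: 14 passed without Ifng-/- 1, and 20 when the fit held only the 6 arrays of CD70TG*Ifng-/- and WT. Markers of classical monocytes such as Ccr2 (-0.68, limma adjusted p = 0.301) and F13a1 (-0.63, limma adjusted p = 0.479) did not pass. Those that passed were led by the protease genes Ctsc and Ctss.

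Ctsc, a lysosomal protease that activates granule enzymes, was at -2.45, -2.41 and -2.32 in CD70TG*Ifng-/- arrays, -1.07, -0.44 and 0.27 in CD70TG arrays, 0.84, 0.27 and 0.55 in Ifng-/- arrays and -0.17, 0.64 and 0.17 in WT arrays. The CD70TG arrays were spread widely and overlapped WT, while the CD70TG*Ifng-/- arrays were tight and lay more than 1 unit below all others. The change was -2.61 ± 0.26 against WT (6.09-fold lower, limma adjusted p = 5.83e-05) and -1.98 ± 0.26 against CD70TG (limma adjusted p = 0.000829). Ctss, which trims the invariant chain of MHC class II, was at -2.24, -1.90 and -1.97 in CD70TG*Ifng-/- arrays, -0.98, -0.34 and 0.10 in CD70TG arrays, 0.86, 0.35 and 0.62 in Ifng-/- arrays and -0.10, 0.44 and 0.17 in WT arrays. It had the same order of groups (-2.21 ± 0.22 against WT, limma adjusted p = 4.80e-05). Against CD70TG it changed by -1.63 ± 0.22 (limma adjusted p = 0.000829).

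The adaptor genes Fcer1g (-2.10) and Tyrobp (-1.54), which pass on signals of Fc and related receptors, were lower than in WT, as were the lectin genes Clec4a1 (-1.28), Clec4a3 (-1.02) and Clec7a (-0.73), Treml4 (-1.41) and Ms4a6d (-0.71). Mpeg1, a pore-forming protein of phagocytes that is on none of the lists, was at -1.95, -1.68 and -1.80 in CD70TG*Ifng-/- arrays, -1.23, -0.52 and -0.11 in CD70TG arrays, 1.07, 0.39 and 0.64 in Ifng-/- arrays and 0.11, 0.87 and 0.25 in WT arrays. The CD70TG arrays lay between the CD70TG*Ifng-/- and WT arrays (-2.22 ± 0.25 against WT, limma adjusted p = 0.000168, and -1.20 ± 0.25 against CD70TG, limma adjusted p = 0.0265).

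Lysosomal and lipid handling genes fell in 13 of 27 cases, beside 1.34% of all genes, with none higher and a median change of -0.53. Apoe, which carries cholesterol, changed by -1.94 ± 0.17 against WT (limma adjusted p = 1.64e-05), the lipoprotein lipase gene Lpl by -1.71, the acid lipase gene Lipa by -1.64, the progranulin gene Grn by -1.54 and the hexosaminidase gene Hexa by -1.45. The mannosidase gene Man2b1 changed by -1.28 and the protease gene Ctsh by -0.93. The saposin precursor gene Psap (-0.73), the protease gene Ctsd (-0.57) and the cholesterol carrier gene Npc2 (-0.56) were also called lower, while the membrane protein gene Lamp1 was at -0.32 (limma adjusted p = 0.0542). Without WT 2, 8 of the 27 passed. The list mean ran from -0.483 to -0.380 in CD70TG*Ifng-/- arrays and from 0.025 to 0.389 in WT arrays. Like the mean of the macrophage list, it was lower in every CD70TG*Ifng-/- array than in every WT array. The part of macrophage number in this was not tested.

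Genes by which macrophages recycle iron were lower in 6 of 18 cases, beside 1.34% of all genes. Of these 6, 5 are also on the macrophage list: Hmox1, Cd163, Trf, Spic and Slc40a1. Slc40a1, the iron exporter ferroportin, was at -0.30, -0.49 and -0.40 in CD70TG*Ifng-/- arrays, -0.38, -0.69 and -0.83 in CD70TG arrays, 0.76, 0.67 and 0.67 in Ifng-/- arrays and 0.30, 0.93 and 0.47 in WT arrays. The groups with the transgene overlapped each other and lay below both others (-0.96 ± 0.14 against WT, limma adjusted p = 0.00165). The sixth was Lrp1, which takes up haem bound to haemopexin (-0.68, limma adjusted p = 0.00562). The ferritin heavy chain gene Fth1 was at -0.08 and the biliverdin reductase gene Blvrb at 0.00, neither past the threshold, and both lie in the higher level class.

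Among 29 PU.1 and myeloid transcription factors, 2 were lower, beside 1.34% of all genes, and none was higher (median -0.19). Spic, which iron-recycling macrophages need and haem induces, was at -0.96, -1.18 and -1.04 in CD70TG*Ifng-/- arrays, -0.64, -0.64 and -0.72 in CD70TG arrays, 1.24, 1.11 and 1.27 in Ifng-/- arrays and 1.05, 1.34 and 0.64 in WT arrays. No CD70TG*Ifng-/- array overlapped any other group (-2.07 ± 0.13 against WT, limma adjusted p = 6.06e-07), but the difference from CD70TG of -0.39 did not pass (limma adjusted p = 0.225). Id2, an inhibitor of E proteins, changed by -1.44 ± 0.19 (limma adjusted p = 0.000837). Spi1, which encodes PU.1, was at -0.34, -0.16 and -0.35 in CD70TG*Ifng-/- arrays, -0.23, -0.12 and 0.13 in CD70TG arrays, 0.95, -0.05 and 0.30 in Ifng-/- arrays and 0.05, 0.36 and 0.23 in WT arrays. The CD70TG*Ifng-/- and WT arrays did not overlap, and the difference of -0.50 ± 0.19 did not pass (limma adjusted p = 0.202).

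**Figure D3:**
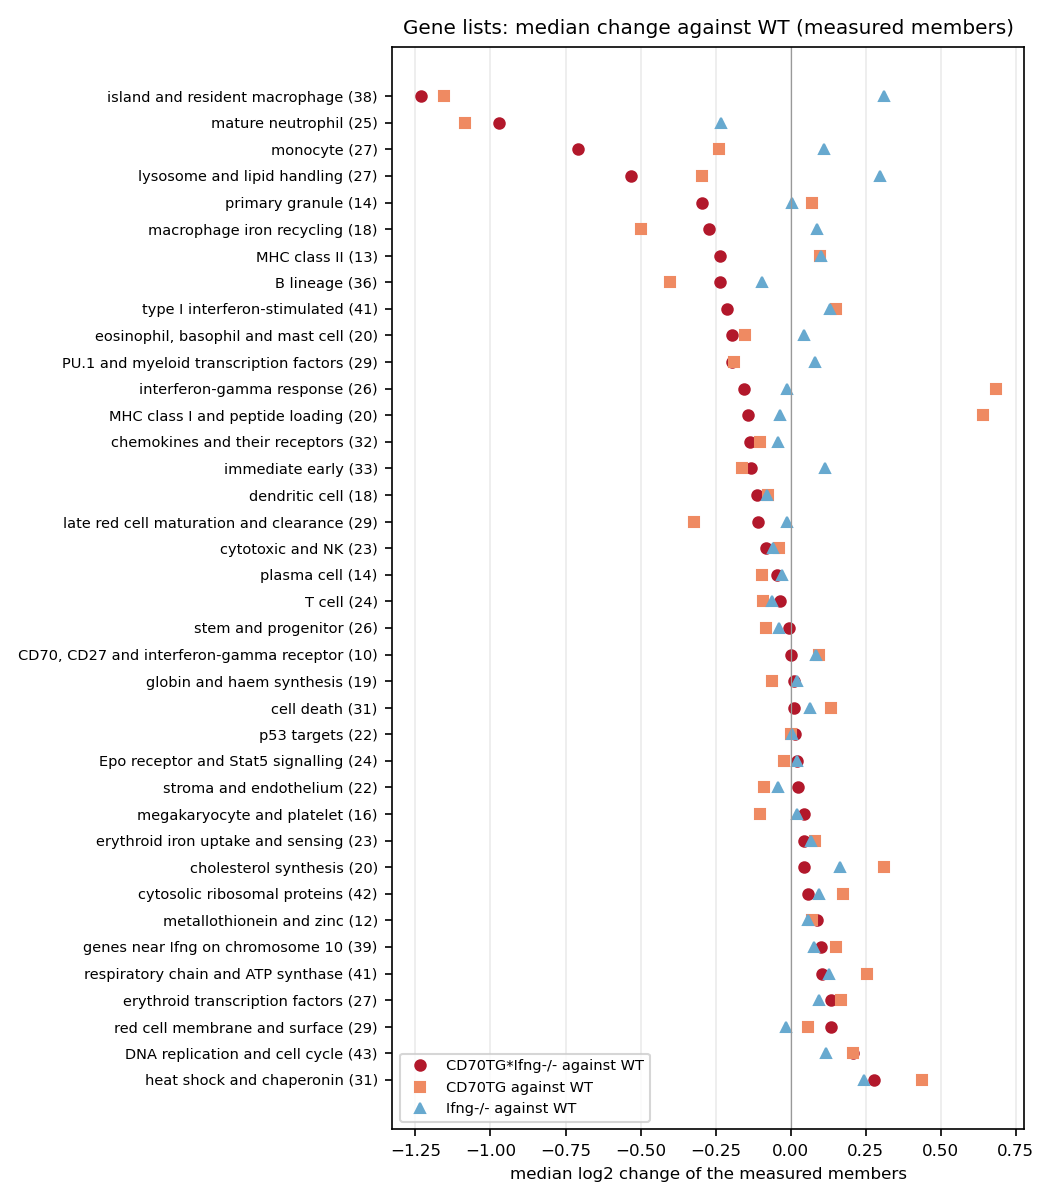
Each row is a gene list with the number of measured members in brackets, and symbols give the median log2 change of those members in CD70TG*Ifng-/-, CD70TG and Ifng-/- mice against the same WT arrays. The macrophage median is -1.23 in CD70TG*Ifng-/- mice, and the interferon-gamma and MHC class I medians are at or above 0.64 in CD70TG mice but below 0 in CD70TG*Ifng-/- mice.

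Of 26 measured interferon-gamma response genes, 2 were lower than in WT, beside 1.34% of all genes, and none was higher. The median change was -0.16, and 22 of the 26 had a change below 0. The list mean ran from -0.227 to -0.183 over the CD70TG*Ifng-/- arrays and from 0.449 to 0.828 over the CD70TG arrays. It ran from -0.112 to 0.066 over the Ifng-/- arrays and from -0.087 to 0.124 over the WT arrays. No CD70TG*Ifng-/- array reached the range of another group. The medians of CD70TG and Ifng-/- against the same WT arrays were 0.68 and -0.01. Against CD70TG, 16 of the 26 genes were called lower, beside 0.988% of all genes, and none higher. Irf1, the transcription factor through which interferon-gamma acts on many targets, was at -0.34, -0.02 and -0.30 in CD70TG*Ifng-/- arrays, 0.49, 0.95 and 0.94 in CD70TG arrays, 0.12, -0.23 and -0.11 in Ifng-/- arrays and -0.06, -0.01 and 0.15 in WT arrays. Its CD70TG*Ifng-/- and WT arrays overlapped (-0.24 ± 0.13, limma adjusted p = 0.387). Against CD70TG the difference in Irf1 was -1.01 ± 0.13 (limma adjusted p = 0.000756).

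The 2 genes called lower than in WT were Gbp8 and Casp1. Gbp8, an interferon-inducible GTPase, was at -0.88, -0.99 and -1.04 in CD70TG*Ifng-/- arrays, 1.15, 1.69 and 1.43 in CD70TG arrays, 0.08, -0.08 and 0.21 in Ifng-/- arrays and -0.33, 0.22 and -0.54 in WT arrays. CD70TG*Ifng-/- arrays were the lowest and CD70TG arrays the highest. The change against WT was -0.75 ± 0.17 (limma adjusted p = 0.0328) and against Ifng-/- it was -1.04 ± 0.17 (limma adjusted p = 0.00192), but the first did not pass under quantile normalization, and it passed in 7 of the 12 fits that leave out 1 array. Casp1, the inflammasome protease, changed by -0.72 ± 0.16 (limma adjusted p = 0.0353) and passed in 5 of those 12 fits. Gbp5 (-0.37, limma adjusted p = 0.192) and Irf8 (-0.62, limma adjusted p = 0.0523) did not pass.

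Among MHC class I genes 1 passed against WT. Of 20 measured genes, B2m was lower than in WT and none was higher (median -0.14). Against CD70TG 14 were lower, beside 0.988% of all genes. The list was written with 31 genes, and the heavy chain genes H2-K1, H2-D1 and H2-L were among those not measured. The list mean ran from -0.242 to -0.186 over the CD70TG*Ifng-/- arrays and from -0.189 to 0.189 over the WT arrays, which overlapped. B2m, the light chain of every class I molecule, was at -0.69, -0.97 and -0.79 in CD70TG*Ifng-/- arrays, 1.05, 1.04 and 0.93 in CD70TG arrays, 0.28, -0.17 and 0.06 in Ifng-/- arrays and -0.34, -0.06 and 0.57 in WT arrays. The 3 CD70TG*Ifng-/- arrays lay below every other array (-0.88 ± 0.18 against WT, limma adjusted p = 0.0202), and the call was lost without any 1 of the CD70TG*Ifng-/- arrays and under quantile normalization. Psmb9, an immunoproteasome subunit, was at -0.28, -0.20 and -0.37 in CD70TG*Ifng-/- arrays, 1.46, 1.69 and 1.94 in CD70TG arrays, 0.13, -0.28 and 0.02 in Ifng-/- arrays and -0.03, -0.02 and 0.36 in WT arrays. It was below WT without overlap but short of the threshold (-0.39 ± 0.14, limma adjusted p = 0.170), as was Psmb8 (-0.53 ± 0.17, limma adjusted p = 0.136).

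**Figure D4:**
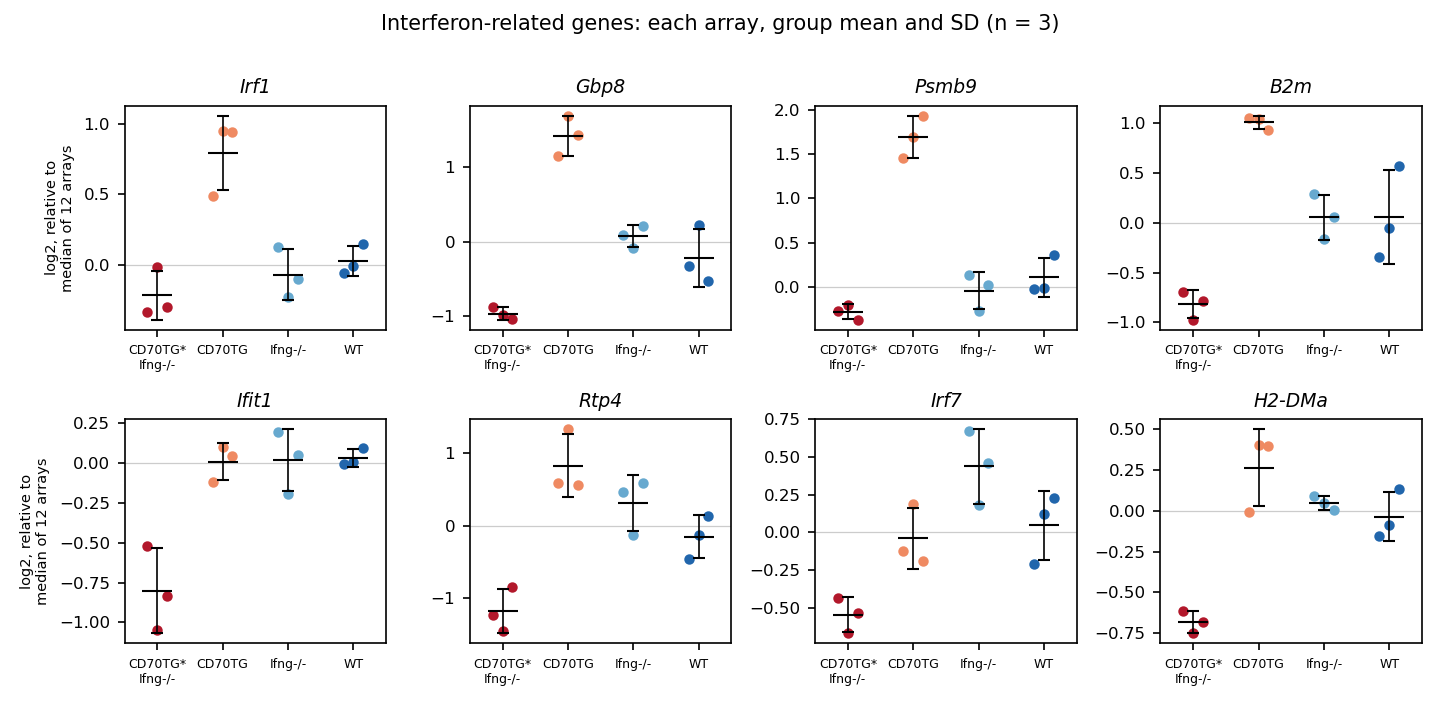
Points are the 3 arrays of each group on the deposited log2 scale, relative to the gene's median over 12 arrays, with bars for the group mean and SD. Gbp8, Psmb9 and B2m are highest in CD70TG arrays, and Ifit1, Rtp4, Irf7 and H2-DMa are lowest in CD70TG*Ifng-/- arrays.

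Genes stimulated by type I interferon were lower in 4 of 41 cases, beside 1.34% of all genes, and higher in none. The median was -0.21, and 36 of the 41 had a change below 0. With arrays centred within level classes 7 were lower. The list mean ran from -0.407 to -0.237 over the CD70TG*Ifng-/- arrays, from 0.100 to 0.292 over the CD70TG arrays, from 0.034 to 0.271 over the Ifng-/- arrays and from -0.195 to 0.067 over the WT arrays. The CD70TG*Ifng-/- arrays were the lowest, without overlap. Ifit1, which binds foreign RNA caps, was at -0.52, -1.05 and -0.83 in CD70TG*Ifng-/- arrays, -0.12, 0.10 and 0.04 in CD70TG arrays, 0.19, -0.19 and 0.05 in Ifng-/- arrays and -0.01, 0.01 and 0.09 in WT arrays. The other 3 groups lay together near 0. Ifit1 was 1.78-fold lower than in WT (-0.83 ± 0.12, limma adjusted p = 0.00199), 0.81 below CD70TG on the log2 scale and 0.82 below Ifng-/-, past the threshold in each, and passed against WT in each of the 12 fits without 1 array.

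Oas3, which makes the messenger that activates RNase L, was at -0.37, -0.65 and -0.50 in CD70TG*Ifng-/- arrays, -0.03, -0.05 and -0.32 in CD70TG arrays, 0.33, 0.03 and 0.06 in Ifng-/- arrays and 0.03, 0.07 and 0.25 in WT arrays. It too was lowest in CD70TG*Ifng-/- arrays (-0.62 ± 0.11 against WT, limma adjusted p = 0.00728) and passed in each of those fits. Rtp4, an interferon-induced chaperone gene, was at -1.24, -1.45 and -0.85 in CD70TG*Ifng-/- arrays, 0.59, 1.33 and 0.56 in CD70TG arrays, 0.47, -0.13 and 0.59 in Ifng-/- arrays and -0.46, -0.13 and 0.13 in WT arrays. Its change was -1.03 ± 0.23 (limma adjusted p = 0.0350). The call was lost under quantile normalization and without CD70TG*Ifng-/- 1, CD70TG*Ifng-/- 2, WT 2 or WT 3. Irf7, the master factor of type I interferon induction, changed by -0.59 ± 0.14 (limma adjusted p = 0.0451) and passed in 5 of the 12 fits.

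The promoter windows of Ifit1, Oas3 and B2m (RefSeq, GRCm38.p6) are shown for the interferon-stimulated response element, a sequence known from promoters of interferon-induced genes. The element was searched as GAAA, any 2 bases, then GAAA on both strands, and capitals mark them or their reverse complement.
Ifit1, chr19:34640639-34640938, plus strand: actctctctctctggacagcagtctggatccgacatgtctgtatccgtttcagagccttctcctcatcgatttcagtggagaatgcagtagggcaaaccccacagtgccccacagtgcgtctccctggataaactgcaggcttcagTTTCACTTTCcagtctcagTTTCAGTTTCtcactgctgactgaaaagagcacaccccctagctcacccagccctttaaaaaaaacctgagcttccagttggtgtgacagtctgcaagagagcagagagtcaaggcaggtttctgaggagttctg
Oas3, chr5:120777610-120777909, minus strand: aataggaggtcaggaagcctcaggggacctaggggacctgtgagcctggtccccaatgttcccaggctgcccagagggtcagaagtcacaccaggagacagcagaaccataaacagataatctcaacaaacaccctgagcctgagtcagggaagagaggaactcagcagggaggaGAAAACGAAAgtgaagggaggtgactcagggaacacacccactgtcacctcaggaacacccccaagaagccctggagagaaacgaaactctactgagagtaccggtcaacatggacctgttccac
B2m, chr2:122147437-122147736, plus strand: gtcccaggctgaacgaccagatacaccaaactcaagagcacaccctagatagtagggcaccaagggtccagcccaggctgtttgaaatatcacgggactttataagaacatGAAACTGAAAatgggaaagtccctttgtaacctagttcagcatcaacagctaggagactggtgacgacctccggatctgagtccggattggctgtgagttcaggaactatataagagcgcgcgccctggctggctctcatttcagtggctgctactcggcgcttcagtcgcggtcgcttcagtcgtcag
Ifit1 held 2 copies, the first at position -104 and the second at -85 from its start, while Oas3 had 1 at -75 and B2m 1 at -139. The element was in 3.32% of all 15612 windows, in 13 of 29 type I interferon-stimulated genes with a window (44.8%), in 6 of 15 interferon-gamma response genes (40.0%) and in 15 of 208 genes called lower (7.21%).

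MHC class II genes included 2 of 13 called lower, Ctss and H2-DMa, beside 1.34% of all genes, and none higher. H2-DMa, part of the complex that loads peptides onto class II, was at -0.61, -0.75 and -0.68 in CD70TG*Ifng-/- arrays, -0.01, 0.40 and 0.40 in CD70TG arrays, 0.09, 0.05 and 0.01 in Ifng-/- arrays and -0.15, -0.09 and 0.13 in WT arrays. The CD70TG*Ifng-/- arrays were clear of all others (-0.65 ± 0.11 against WT, limma adjusted p = 0.00480). H2-Aa, a class II chain, was at -1.48, -2.00 and -1.01 in CD70TG*Ifng-/- arrays, 0.21, 1.18 and 1.60 in CD70TG arrays, -0.03, 0.03 and 0.04 in Ifng-/- arrays and -0.69, -0.28 and 0.59 in WT arrays. The size of its change was larger but so was the spread (-1.37 ± 0.34, limma adjusted p = 0.0591). Cd74, the invariant chain, was at -1.22 ± 0.31 (limma adjusted p = 0.0643). Macrophages, B cells and dendritic cells all express class II, and the part of each in these changes was not tested.

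Of 25 mature neutrophil genes none passed with limma, although 24 had a change below 0, 19 had an unadjusted p under 0.05 and the median was -0.97. This count depended on the scaling: 13 of the 25 were called lower under quantile normalization, and 0 under median centring or centring within level classes. S100a9, a calcium-binding protein abundant in neutrophils, was at -0.63, -0.02 and -0.37 in CD70TG*Ifng-/- arrays, -0.48, -0.12 and 0.02 in CD70TG arrays, 1.96, -0.89 and 0.85 in Ifng-/- arrays and 1.62, 1.43 and 1.51 in WT arrays. The WT arrays were all high, while the Ifng-/- arrays spanned the whole range, from the lowest to the highest of the 12 (-1.86 ± 0.46 against WT, limma adjusted p = 0.0591). Ifng-/- 2 was the lowest array also for S100a8, the partner of S100a9. Cxcr2, the neutrophil chemokine receptor, changed by -1.44 ± 0.35 (limma adjusted p = 0.0563).

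Of 14 primary granule genes, Clec12a, an inhibitory lectin of myeloid cells, was lower (-1.37 ± 0.26, limma adjusted p = 0.0128), and its call was lost without CD70TG*Ifng-/- 3, WT 1 or WT 2. The eosinophil, basophil and mast cell list held 1 lower gene of 20, Ccr3, known as the eotaxin receptor of eosinophils. Ccr3 was at -1.65, -1.54 and -1.41 in CD70TG*Ifng-/- arrays, -1.16, -1.65 and -1.89 in CD70TG arrays, 1.96, 1.79 and 2.00 in Ifng-/- arrays and 1.38, 2.06 and 1.16 in WT arrays. Its groups lay as those of Hmox1 and Cd163 did (-3.07 ± 0.20 against WT, limma adjusted p = 7.18e-07). The eosinophil granule gene Prg3 did not pass (-0.32 ± 0.16, limma adjusted p = 0.335). Of the 20 genes 18 had a change below 0. The list mean ran from -0.267 to -0.116 over the CD70TG*Ifng-/- arrays and from -0.601 to -0.122 over the CD70TG arrays. It ran from -0.130 to 0.740 over the Ifng-/- arrays and from 0.158 to 0.294 over the WT arrays. Which cells the change in Ccr3 came from was not tested. Ccl6, a chemokine of myeloid cells, was the other lower gene among 32 chemokines and receptors (-1.42 ± 0.24, limma adjusted p = 0.00619).

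B lineage genes were lower in 4 of 36 cases, beside 1.34% of all genes, with none higher and a median of -0.23. In CD70TG against WT 22 of the 36 were lower, beside 2.7% of all genes, with a median of -0.40. In CD70TG*Ifng-/- against CD70TG 2 of the 36 were higher, beside 0.426% of all genes, and none was lower. Bank1, a B cell scaffold protein, was at -0.41, -0.52 and -0.14 in CD70TG*Ifng-/- arrays, -0.67, -0.50 and -0.56 in CD70TG arrays, 0.55, 0.50 and 0.66 in Ifng-/- arrays and 0.14, 0.54 and 0.25 in WT arrays. Both groups with the transgene were below both groups without it (-0.67 ± 0.11 against WT, limma adjusted p = 0.00488). Cd79b, a signalling chain of the B cell receptor, changed by -0.78 ± 0.17 (limma adjusted p = 0.0257), the inhibitory receptor gene Cd22 by -0.41 ± 0.09 (limma adjusted p = 0.0403) and the surrogate light chain gene Vpreb3 by -0.50 ± 0.12 (limma adjusted p = 0.0460). These 3 calls were less stable than that of Bank1, passing in 8, 5 and 3 of the 12 fits without 1 array, in that order.

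Cd4 was the 1 gene lower among 24 T cell genes (-0.54 ± 0.10, limma adjusted p = 0.00706). Its values were -0.51, -0.30 and -0.15 in CD70TG*Ifng-/- arrays, -0.31, -0.33 and -0.25 in CD70TG arrays, 0.70, 0.82 and 0.60 in Ifng-/- arrays and 0.18, 0.35 and 0.15 in WT arrays. Both groups without the transgene lay above both groups with it. Macrophages can carry Cd4 as well, and which cells its change came from was not tested. The T cell receptor gene Cd3e did not pass (-0.21 ± 0.12, limma adjusted p = 0.420). None of 23 cytotoxic and NK genes passed with limma, and 2 had an unadjusted p under 0.05. Jchain, which joins secreted antibody, was the 1 lower gene of 14 plasma cell genes (-0.81 ± 0.18, limma adjusted p = 0.0339); it was at 0.02, -0.09 and -0.10 in CD70TG*Ifng-/- arrays, -0.21, -0.14 and -0.41 in CD70TG arrays, -0.02, 0.14 and 0.11 in Ifng-/- arrays and 1.05, 1.06 and 0.15 in WT arrays. WT 1 and WT 2 were high and WT 3 was not, and the call was lost without any 1 of the CD70TG*Ifng-/- arrays, CD70TG 2, Ifng-/- 3, WT 1 or WT 2. Of the other cell type lists, 1 gene was lower in each of the megakaryocyte (Plek, -1.20, a protein of platelets and other blood cells), stroma (Kitl, -0.38, the ligand of Kit) and stem and progenitor (Cd48, -1.03, an adhesion molecule of blood cells) lists. Plek passed in each of the 12 fits without 1 array, Cd48 in 7 and Kitl in 4. None of 18 dendritic cell genes passed with limma, with 5 at an unadjusted p under 0.05.

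Over all genes 1.79% passed in either direction, a share at which an erythroid list of some 30 genes may hold none. None of 27 erythroid transcription factors passed with limma (4 at an unadjusted p under 0.05, median 0.13). Nor did any of 29 red cell membrane and surface genes (10 at an unadjusted p under 0.05, median 0.13). Both medians lay near the 0.16 of the higher level class and were 0.01 and 0.00 when the arrays were centred within level classes. Gata1, the master factor of red cells, was at 0.21, 0.02 and 0.00 in CD70TG*Ifng-/- arrays, 0.14, 0.20 and 0.00 in CD70TG arrays, -0.14, 0.21 and -0.05 in Ifng-/- arrays and -0.01, -0.12 and -0.07 in WT arrays. The difference of 0.14 ± 0.10 did not pass (limma adjusted p = 0.521). Klf1, which drives globin genes, differed by 0.22 ± 0.09 (limma adjusted p = 0.255), the erythropoietin receptor gene Epor by 0.22 ± 0.12 (limma adjusted p = 0.400) and Tfrc by 0.09 ± 0.08 (limma adjusted p = 0.639). None of 24 genes of erythropoietin receptor and Stat5 signalling passed with limma, with 5 at an unadjusted p under 0.05.

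A few erythroid genes were lower. Slc25a39, a mitochondrial carrier of glutathione that haem synthesis needs, was at -0.23, -0.20 and -0.13 in CD70TG*Ifng-/- arrays, -0.42, -0.39 and -0.49 in CD70TG arrays, 0.35, 0.26 and 0.13 in Ifng-/- arrays and 0.25, 0.33 and 0.22 in WT arrays. Its CD70TG*Ifng-/- arrays lay between CD70TG and both groups without the transgene (-0.45 ± 0.08 against WT, limma adjusted p = 0.00480). It was the 1 gene called among 19 globin and haem synthesis genes, where Alas2, the first enzyme of haem synthesis in red cells, was at -0.18 (limma adjusted p = 0.262). Of 29 genes of late red cell maturation 2 were lower, beside 1.34% of all genes. These were the ubiquitin ligase gene Rnf11 (-0.41 ± 0.08, limma adjusted p = 0.0207) and the glutathione peroxidase gene Gpx1 (-0.30 ± 0.07, limma adjusted p = 0.0317). They passed in 8 and 6 of the 12 fits without 1 array, in that order. With arrays centred within level classes 4 of the 29 were lower. This list had a median of -0.11 against WT (-0.20 when arrays were centred within level classes), beside -0.32 for CD70TG against the same WT arrays. Against CD70TG 6 of its 29 genes were called higher, beside 0.426% of all genes. Bpgm, which makes the 2,3-bisphosphoglycerate that loosens oxygen, is on the red cell membrane and surface list. It was the 1 gene of 29 there called higher against CD70TG (0.40 ± 0.08, limma adjusted p = 0.0132). Hfe, a regulator of iron sensing, was the 1 lower gene of 23 in erythroid iron uptake (-0.58 ± 0.12, limma adjusted p = 0.0207), and its call was lost without CD70TG*Ifng-/- 1, CD70TG*Ifng-/- 3 or WT 2.

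DNA replication and cell cycle genes were all but 1 above 0 without passing: 42 of 43 had a positive change, 20 had an unadjusted p under 0.05, the median was 0.21 and none passed with limma. Of the 43, 42 lie in the higher level class, and the median became 0.07 when arrays were centred within level classes. The polymerase clamp gene Pcna was at 0.08 and the proliferation marker Mki67 at 0.13. Cytosolic ribosomal proteins (42 genes, median 0.06, or -0.07 when centred within level classes, 5 at an unadjusted p under 0.05) and the respiratory chain (41 genes, median 0.10, 11 at an unadjusted p under 0.05) had no gene past the limma threshold either.

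Pawr had the largest rise. Pawr encodes a leucine zipper protein known to promote cell death, and lies on chromosome 10, as Ifng does. It was at 1.09, 1.21 and 1.43 in CD70TG*Ifng-/- arrays, -0.54, -0.37 and -0.36 in CD70TG arrays, 0.48, 0.77 and 0.36 in Ifng-/- arrays and -0.65, -0.88 and -0.84 in WT arrays. No group overlapped another: CD70TG*Ifng-/- was highest, followed by Ifng-/-, CD70TG and WT. Pawr was 4.09-fold higher in CD70TG*Ifng-/- than in WT arrays (2.03 ± 0.11, limma adjusted p = 1.77e-07), 1.67 ± 0.11 higher than in CD70TG (limma adjusted p = 2.59e-06) and 0.71 ± 0.11 higher than in Ifng-/- (limma adjusted p = 0.00202). It was also the only gene called in Ifng-/- against WT (0.00502% of genes), with a change of 1.32 ± 0.11 (limma adjusted p = 0.000215). In CD70TG against WT the change of 0.36 ± 0.11 did not pass (limma adjusted p = 0.0551).

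Pawr was the 1 gene called among 31 cell death genes and among 39 genes near Ifng, a list on which it stands itself. Counted in the order of measured genes along the chromosome, Pawr was the 54th from Ifng, and 53 measured genes lay between them. Of these, 1 was called higher, the histone chaperone gene Nap1l1 (0.46, limma adjusted p = 0.0411), and 1 lower, the lysozyme gene Lyz2 (-1.79, limma adjusted p = 0.0207), which is on the macrophage list. Of the 240 measured genes within 120 genes on either side of Ifng, 8 were called, beside 1.79% of all genes. Neither Nap1l1 (0.41, limma adjusted p = 0.229) nor Lyz2 (-0.06, limma adjusted p = 0.952) passed in Ifng-/- against WT.

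**Figure D5:**
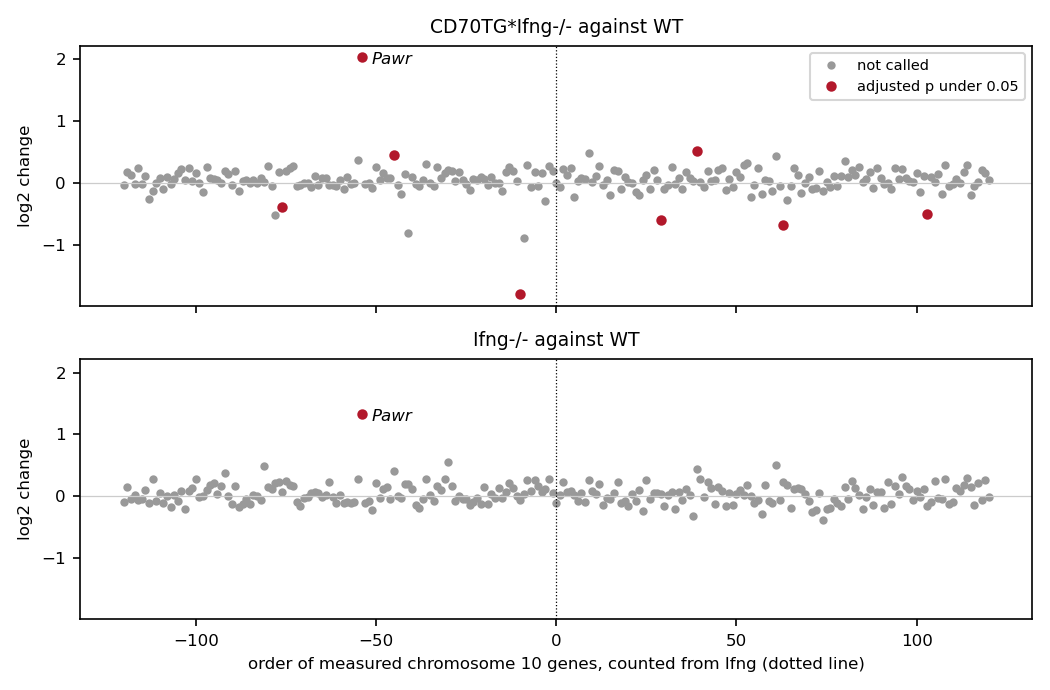
Points are measured genes of chromosome 10 in their order from Ifng at the dotted line (x axis, number of genes) with their log2 change in CD70TG*Ifng-/- against WT (top) and Ifng-/- against WT (bottom). Pawr stands at 2.03 in the top panel and 1.32 in the bottom panel, and the remaining called genes of the top panel are scattered on both sides of Ifng.

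Other genes that rose did so by less than 2-fold, apart from 1 small nucleolar RNA. Reln, a secreted protein best known from neuronal migration, was at 0.85, 0.67 and 0.84 in CD70TG*Ifng-/- arrays, 0.08, -0.38 and -0.52 in CD70TG arrays, 0.02, 0.40 and -0.10 in Ifng-/- arrays and -0.17, -0.02 and -0.22 in WT arrays. Its CD70TG*Ifng-/- arrays were above all 9 others (0.93 ± 0.15 against WT, limma adjusted p = 0.00315). Aim2, the sensor of DNA in the cytosol, was at 0.47, 0.49 and 0.80 in CD70TG*Ifng-/- arrays, -0.52, 0.01 and -0.23 in CD70TG arrays, 0.05, 0.23 and -0.01 in Ifng-/- arrays and -0.14, -0.10 and -0.17 in WT arrays. It too was above all 9 others (0.72 ± 0.12 against WT, limma adjusted p = 0.00556), and both genes passed against CD70TG and against Ifng-/-. Il1rl2, a receptor for interleukin-36 cytokines, was likewise above all 9 others (0.68 ± 0.15, limma adjusted p = 0.0323) but passed in 5 of the 12 fits without 1 array.

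Ndrg2, a differentiation-related gene, was at 0.32, 0.34 and 0.45 in CD70TG*Ifng-/- arrays, 0.01, 0.19 and 0.18 in CD70TG arrays, -0.16, -0.01 and -0.06 in Ifng-/- arrays and -0.32, -0.35 and -0.21 in WT arrays. The groups did not overlap, and CD70TG lay between CD70TG*Ifng-/- and Ifng-/- (0.66 ± 0.08 against WT, limma adjusted p = 0.00026). Nom1 (0.58 ± 0.10, limma adjusted p = 0.00556) and Brix1 (0.53 ± 0.10, limma adjusted p = 0.0138), both of ribosome assembly, and Tatdn2 (0.51 ± 0.09, limma adjusted p = 0.00762), a predicted nuclease, were higher than in WT. Their differences from CD70TG were 0.07, -0.14 and 0.00, none past the threshold, and Brix1 lost its call in 4 of the 12 fits without 1 array (CD70TG*Ifng-/- 1, CD70TG*Ifng-/- 3, WT 1 and WT 3). In Cdk4, a kinase of the cell cycle, the change against WT was 0.52 ± 0.10 (limma adjusted p = 0.0188), and it did not pass when arrays were centred within level classes. The remaining named genes were Khnyn (0.70), Mss51 (0.60), Ufsp1 (0.60) and Trmo (0.51). Each of these passed in 7 to 9 of the 12 fits.

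Of 31 heat shock and chaperonin genes 2 were higher, Hsph1 and Dnajb1, beside 0.446% of all genes, and none was lower. The number higher was 5 under quantile normalization, 1 under median centring and 0 under centring within level classes. The median was 0.28, beside 0.16 in the higher level class that holds 26 of the 31, and 0.15 when arrays were centred within level classes. The list mean ran from -0.124 to 0.096 over the CD70TG*Ifng-/- arrays and from 0.103 to 0.210 over the CD70TG arrays. It ran from -0.040 to 0.061 over the Ifng-/- arrays and from -0.359 to -0.192 over the WT arrays, which were the lowest. In CD70TG against WT 22 of the 31 were higher, beside 8.23% of all genes. Hsph1, a large heat shock protein, was at 0.05, -0.69 and -0.11 in CD70TG*Ifng-/- arrays, -0.02, 0.17 and 0.25 in CD70TG arrays, 0.05, 0.02 and 0.26 in Ifng-/- arrays and -1.20, -0.78 and -0.94 in WT arrays. The WT arrays stood below the 9 others, and CD70TG*Ifng-/- 2 came close to them (0.73 ± 0.16, limma adjusted p = 0.0328). The call was lost without CD70TG*Ifng-/- 1, CD70TG*Ifng-/- 3, CD70TG 2, WT 1 or WT 3 and when arrays were centred within level classes. Dnajb1, a partner of Hsp70, changed by 0.47 ± 0.11 (limma adjusted p = 0.0439) and passed in 4 of the 12 fits.

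Of 33 immediate early genes, Jun was higher and Rgs2 lower. Under median centring and under centring within level classes none of the 33 passed, and under quantile normalization 2 were higher and 3 lower. Jun, a subunit of AP-1, was at 0.80, 0.03 and 0.56 in CD70TG*Ifng-/- arrays, -0.40, -0.24 and -0.38 in CD70TG arrays, 0.47, 0.24 and 0.30 in Ifng-/- arrays and -0.38, -0.03 and -0.13 in WT arrays. Both groups without Ifng were above both groups with it (0.64 ± 0.15 against WT, limma adjusted p = 0.0485), and the call held in 3 of the 12 fits. Rgs2, a brake on G proteins, changed by -0.95 ± 0.23 (limma adjusted p = 0.0485), also in 3 of the 12 fits, while Fos did not pass (-0.72 ± 0.21, limma adjusted p = 0.101). With limma none of 22 p53 targets, 12 metallothionein and zinc genes, 20 cholesterol synthesis genes and 10 genes around CD70, its receptor and the receptor of interferon-gamma passed; 4, 4, 3 and 4 of them had an unadjusted p under 0.05. Mt2, a metallothionein, was at 0.42 ± 0.14 against WT (limma adjusted p = 0.170) and at -1.34 ± 0.14 against CD70TG (limma adjusted p = 0.000162). The receptor chain genes Ifngr1 (-0.43, limma adjusted p = 0.291) and Ifngr2 (-0.65, limma adjusted p = 0.101) and Cd27 (-0.05, limma adjusted p = 0.868) did not pass.

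Against Ifng-/- mice, which differ from CD70TG*Ifng-/- mice by the transgene, 499 genes (2.5%) were called, 31 higher (0.156%) and 468 lower (2.35%). Of the 38 macrophage genes 34 were lower there, and of the 27 lysosomal genes 19. Vcam1 changed by -4.21 on the log2 scale (SE 0.18, limma adjusted p = 2.31e-08) and Hmox1 changed by -3.68 (SE 0.17, limma adjusted p = 2.31e-08). The comparison of CD70TG with WT called 2179 genes (10.9%), 1640 higher (8.23%) and 539 lower (2.7%). All of these comparisons share arrays with that of CD70TG*Ifng-/- against WT, so their values are not independent of it.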

How the data were processed

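RNA of CD71+ bone marrow cells was measured on 12 whole-transcript Affymetrix arrays, 1 per mouse, in 4 groups of 3 taken from the genotype labels. The deposited log2 values were made by the authors with RMA, per the submitters' processing notes, with version and annotation not given in the sources used here. Log base and direction were taken from what RMA gives, and why each probe set's median is 0 is unknown.

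Of 28815 probe sets, 21780 had exactly 1 gene symbol in GEO's platform annotation, 1605 had several and 5430 had none; the last 2 kinds named no gene. Probe sets of a gene were averaged, which applied to 998 of 19935 genes, and no filter on low values was applied. The level class (original log2 of at least 8) was read from the rounding step of the deposited numbers with a tolerance of 0.06 of a step. It held 47 of 57 genes for ribosomal proteins but 1 of 1015 for olfactory receptors.

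Group means were fitted to all 12 arrays with limma 3.58.1 in R 4.3.3 (lmFit, eBayes; degrees of freedom were 8 residual and 6.229 prior). Tests were two-sided, and p-values were adjusted by Benjamini-Hochberg over all genes, with 0.05 as threshold. On simulated data of 19935 genes for CD70TG*Ifng-/- against WT, the fit called 31 of 50 genes changed by 0.5 on the log2 scale, 48 of 50 changed by 1 and all 50 changed by 2, with 9 false calls. The simulated noise was independent between genes and arrays. These counts therefore do not cover deviations that many genes of an array share. Replicate numbers are mouse numbers: the deviations of same-numbered CD70TG*Ifng-/- and WT arrays correlated at -0.146, -0.279 and -0.059, so they were not treated as pairs.

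Named genes were Cd70, Cd27, Ifng, Irf1, Spi1, Gata1, Klf1, Epor and Tfrc, the 15 higher and 15 lower called genes of largest change without overlap with WT, and from each list the members of smallest p, at most 4, skipping small RNAs and genes without an official symbol. Members given beyond these were picked from the macrophage, monocyte, lysosome and iron lists, or as examples, after their values were seen. The comparison and all 39 lists were chosen with earlier results of these data known. Alternatives were 3 other scalings, a fit of the 6 arrays of CD70TG*Ifng-/- and WT, robust eBayes, 1 probe set per gene, the higher level class alone, a replicate block and leaving out arrays.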

Additional observations from a re-analysis of the deposited data

Results flagged for a closer look

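Among the 15 higher and 15 lower genes of largest change, there were 11 for which the change against WT in CD70TG*Ifng-/- differed from that in CD70TG by limma's test of the difference, which is the same as CD70TG*Ifng-/- against CD70TG. The genes were picked on CD70TG*Ifng-/- against WT, which shares the CD70TG*Ifng-/- arrays. Genes named by other parts of the rule or as list members were not screened in this way, and several of them, such as Fcgr4, Irf1 and Mt2, also passed against CD70TG, with the values given above. On the log2 scale the difference was 1.67 for Pawr, 1.06 for Reln, 0.93 for Il1rl2, 0.83 for Aim2 and 0.81 for Jun. It was -1.98 for Ctsc, -1.63 for Ctss, -1.20 for Mpeg1, -1.11 for Vcam1, -1.01 for C1qb and -0.94 for C1qc. The first 5 were thus higher, and the other 6 lower, in CD70TG*Ifng-/- than in CD70TG arrays.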

How the results depend on the processing

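Numbers of called genes in CD70TG*Ifng-/- against WT depended on the arrays in the fit. With only the 6 arrays of these groups 908 passed, 304 higher and 604 lower. With CD70TG 3 and Ifng-/- 2 both left out, an alternative chosen after seeing the data, 907 passed, 438 higher and 469 lower. Without single arrays the total ran from 171 to 653, the higher genes from 7 to 198 and the lower genes from 152 to 488. Quantile normalization called 407 lower, median centring of each array 48 higher and centring within level classes 36 higher. The replicate block called 35 higher and 208 lower, although the mouse numbers do not pair the arrays. Restricted to the higher level class, with fewer genes tested, 217 passed, 145 higher and 72 lower. Against CD70TG 160 passed in that class, and 136 to 365 without single arrays. Against Ifng-/- 78 passed in that class, 297 to 868 without single arrays and 1048 without both arrays named above. In Ifng-/- against WT 5 passed under quantile normalization, 16 in that class, 1 to 42 without single arrays and 4 without both.

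In the higher level class, which holds fewer of their members, 3 macrophage, 4 monocyte and 7 lysosomal genes were lower. Monocyte genes called lower numbered 20 with 6 arrays and 7 to 14 without single arrays, and lysosomal genes 8 to 15. Beyond the lists qualified above, centring within level classes called 9 iron recycling, 3 erythroid iron uptake, 2 globin and haem and 2 MHC class I genes lower, and quantile normalization called 5 chemokine genes and 2 genes of the eosinophil list lower. Counts of 0 lower became 1 under quantile normalization in the NK, dendritic cell, erythropoietin signalling and CD70 receptor lists, and under centring within level classes in the NK, red cell membrane and respiratory chain lists. Apart from the effects of the alternatives' own construction (fewer genes or arrays), the cause was not tested. No change of sign was found under these alternatives among the 63 named genes past the threshold. The remaining called genes were not screened for a change of sign. Signal over background is not known beyond the level class.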

Other observations

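Of the 268 lower genes, 187 were on none of the lists, and those of largest change were picked after their values were seen. Marcks, which binds actin at the membrane, changed by -2.13 in CD70TG*Ifng-/- against WT (limma adjusted p = 1.47e-05). Cfp, the complement factor properdin, changed by -2.04, Ly86, a partner of a Toll-like receptor family member, by -1.88, the selenium carrier gene Selenop by -1.74 and the growth factor gene Igf1 by -1.52. Ly86 was also lower than in CD70TG (-1.37, limma adjusted p = 0.00233).

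AW112010, a transcript known to be induced in activated immune cells, was at -1.50, -1.55 and -1.71 in CD70TG*Ifng-/- arrays, 0.35, 1.15 and 0.98 in CD70TG arrays, 0.20, -0.56 and -0.12 in Ifng-/- arrays and -0.22, 0.12 and 0.55 in WT arrays. It was below every other array in CD70TG*Ifng-/- mice (-1.74 against WT, limma adjusted p = 0.000529, and -2.41 against CD70TG, limma adjusted p = 3.84e-05).

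Small nucleolar RNAs were among the higher genes: Snord14e (1.06, limma adjusted p = 0.0362), Snora20 (0.82) and Snord35a (0.73). Tested as probe sets, 2 of the 1605 with several gene symbols were higher and 22 lower, and of the 5430 with no symbol 7 were higher and 15 lower.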
